A study of Homo sapiens with 10 samples.

Results

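The caveolins and cavins are the proteins that build caveolae, and the 7 genes that encode them in human, CAV1, CAV2, CAV3, CAVIN1, CAVIN2, CAVIN3 and CAVIN4, were taken by name from GENCODE v44lift37, out of 20098 protein-coding genes on chromosomes 1 to 22 and X. All 7 were found. Peaks were taken near a gene if they shared at least 1 base with its annotated bounds widened by 50 kb, and a promoter was any annotated start site of the gene widened by 1 kb. By this rule 170 of 128837 peaks lay near the 7 genes, with peaks in the windows of both CAV1 and CAV2 counted once. CAV1 and CAV2 are neighbours and were also described as a unit.

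The cells were MDAMB231, a triple-negative breast cancer line with mesenchymal-like features, grown in DMEM with 5% FBS and given no treatment. ChIP-seq of H3K4me3, H3K27Ac and H3K4me1 and FAIRE-seq were each done on 2 samples, with 1 ChIP input and 1 FAIRE input, and the authors combined both samples of an assay into 1 list of peaks. The lists therefore carry no replicate error, no test between groups was possible, and the files do not give the depth behind a peak. H3K4me3 marks start sites, H3K4me1 marks enhancers and promoter flanks, H3K27Ac marks active promoters and enhancers, and FAIRE (formaldehyde-assisted isolation of regulatory elements) recovers DNA depleted of nucleosomes.

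Caveolae are flask-shaped pits of the plasma membrane that take part in endocytosis, signalling and the response to stretch. Caveolins are integral membrane proteins that form the pit, and cavins are cytoplasmic coat proteins that bind the caveolins and shape it. CAV3 and CAVIN4 are the members known for striated muscle, whereas CAV1, CAV2 and the other cavins are made in many cell types, and CAV1 and CAVIN1 are abundant in basal and mesenchymal breast cancer lines.

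The lists held 18019 H3K4me3 peaks, 37495 H3K27Ac peaks, 26771 H3K4me1 peaks and 46552 FAIRE peaks. A histone peak has a MACS score, which is 10 times the negative log10 of its p-value, and a FAIRE peak has a height. The median score was 3100 for H3K4me3, 591 for H3K27Ac and 114 for H3K4me1, and the median FAIRE height was 61.1. A score of 3100 was shared by a large number of peaks, which could not be ranked among themselves. At or above it were 56.8% of the H3K4me3 peaks and 10.5% of the H3K27Ac peaks. The highest score in both lists was 3233, and scores from 3100 up to it were not read as a ranking.

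The label of the line was checked with genes of the mesenchymal state and of the luminal or epithelial state. VIM, ZEB1, AXL and CD44 had promoter peaks in all 4 lists, 4 of 4 genes, where 13.1% of all coding genes had them. Of CDH1, ESR1, PGR and GATA3, 0 of 4 had peaks of all 4 lists, 0 had a promoter H3K4me1 peak and 1, CDH1, had a promoter FAIRE peak, with a height of 31.7, where 20.0% and 39.3% of coding genes had these. With shares this low, the few peaks at the 4 luminal genes were near the background. ESR1, PGR and GATA3 nevertheless had promoter H3K4me3 peaks, with scores of 1258, 400 and 2395, and CDH1 and GATA3 had promoter H3K27Ac peaks, with scores of 538 and 383. These 3 of 4 and 2 of 4 genes were also near the shares of all coding genes, 67.3% and 63.5%.

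The promoters that the peaks bear on are shown first, because the members differed here in base composition as well as in marks. RefSeq's promoter table, built on GRCh38.p14, held 5 of the 7 members, CAV1, CAV2, CAV3, CAVIN2 and CAVIN4, while CAVIN1 and CAVIN3 were not matched in it. For each gene the 250 bases before the start in its first entry are given 5′ to 3′ along the gene, with CG dinucleotides in capitals. Each promoter matched GRCh37, the build of the peak lists, exactly and at 1 place, and the coordinates are those of the match. The last 15 bases shown for CAV1 are annotated as untranslated region in GENCODE, whose first start site lies upstream of the RefSeq one.
CAV1, GRCh37 chr7:116164813-116165062, + strand: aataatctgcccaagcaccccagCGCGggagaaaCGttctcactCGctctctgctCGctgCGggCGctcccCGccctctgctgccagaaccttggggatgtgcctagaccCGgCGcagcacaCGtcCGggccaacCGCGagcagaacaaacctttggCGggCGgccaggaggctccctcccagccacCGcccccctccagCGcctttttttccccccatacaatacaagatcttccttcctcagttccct
CAV2, GRCh37 chr7:116139542-116139791, + strand: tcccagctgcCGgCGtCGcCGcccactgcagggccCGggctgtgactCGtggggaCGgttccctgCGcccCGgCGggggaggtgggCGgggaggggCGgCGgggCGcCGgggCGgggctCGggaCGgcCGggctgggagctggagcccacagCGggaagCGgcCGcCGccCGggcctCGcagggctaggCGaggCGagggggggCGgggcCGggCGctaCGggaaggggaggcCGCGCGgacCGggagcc
CAV3, GRCh37 chr3:8775238-8775487, + strand: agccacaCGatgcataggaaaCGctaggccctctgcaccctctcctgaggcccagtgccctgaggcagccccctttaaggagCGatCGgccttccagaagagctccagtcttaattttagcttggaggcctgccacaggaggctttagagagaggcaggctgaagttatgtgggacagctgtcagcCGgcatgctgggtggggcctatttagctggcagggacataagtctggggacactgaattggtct
CAVIN2, GRCh37 chr2:192711815-192712064, - strand: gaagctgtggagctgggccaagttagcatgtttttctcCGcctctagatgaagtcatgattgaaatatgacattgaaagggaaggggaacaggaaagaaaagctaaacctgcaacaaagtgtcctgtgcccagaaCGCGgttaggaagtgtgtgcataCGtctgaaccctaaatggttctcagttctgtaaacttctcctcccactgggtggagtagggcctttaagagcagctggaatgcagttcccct
CAVIN4, GRCh37 chr9:103340111-103340360, + strand: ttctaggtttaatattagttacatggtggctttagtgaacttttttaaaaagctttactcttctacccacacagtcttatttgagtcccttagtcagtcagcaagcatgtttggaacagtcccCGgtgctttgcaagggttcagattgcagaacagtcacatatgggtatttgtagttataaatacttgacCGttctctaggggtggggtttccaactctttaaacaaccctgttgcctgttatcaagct

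The CAV2 promoter held 35 CG dinucleotides in 250 bases, and 5.80% of 35116 RefSeq promoters held as many. The CAV1 promoter held 18, against a median of 11 over all promoters. CAV3, CAVIN2 and CAVIN4 lay below that median, with 5, 4 and 2. GC content fell in the same order, from 83.2% in CAV2 and 63.6% in CAV1 to 57.2% in CAV3, 48.0% in CAVIN2 and 40.4% in CAVIN4. CG content did not separate promoters with peaks from those without, since CAVIN2 had peaks of all 4 lists and CAV3, with 1 more CG, had none. All 250 bases shown for CAV1 and for CAVIN2 lay inside a FAIRE peak, and 0 of those shown for CAV2, CAV3 and CAVIN4 did.

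Of the 7 genes, 4 had promoter peaks of all 4 lists, CAV2 had them of 2 lists, and 2 genes had none. A promoter H3K4me3 peak was found at 5 of the 7, where 67.3% of all protein-coding genes had one, and a promoter H3K27Ac peak at the same 5, where 63.5% had one. These counts were near the background. A promoter H3K4me1 peak was found at 4 of 7 members, against 20.0% of coding genes, and a promoter FAIRE peak at 4 of 7, against 39.3%. CAV1, CAVIN1, CAVIN2 and CAVIN3 had promoter peaks of all 4 lists, as did 13.1% of coding genes. With the centre of the peak required inside the promoter, CAVIN3 alone kept H3K4me1 and so peaks of all 4 lists, and the share of coding genes with promoter H3K4me1 fell to 8.64%. CAV3 and CAVIN4, the striated muscle members, had no promoter peak in any list, as did 29.3% of coding genes.

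**Figure D1:**
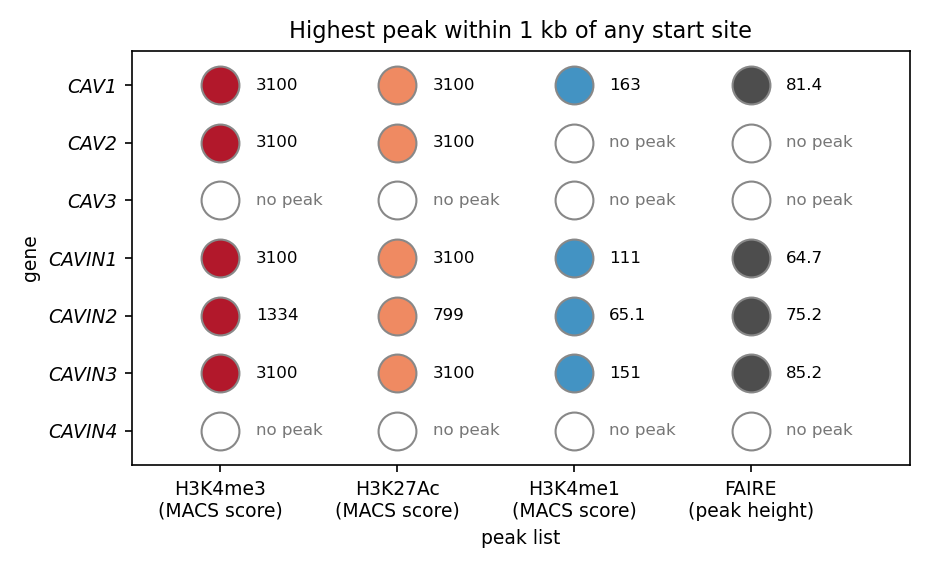
Promoter peaks of the 7 caveolin and cavin genes in the 4 lists from MDAMB231 cells. Each filled circle is a peak within 1 kb of any annotated start site, with the highest MACS score or FAIRE height beside it, and each open circle is a promoter with no peak; CAV3 and CAVIN4 have open circles in all 4 columns, and CAV2 has them for H3K4me1 and FAIRE.

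CAV1 encodes caveolin-1, the main structural protein of caveolae outside striated muscle. The gene (ENSG00000105974) lies at chr7:116165048-116201233 on the + strand, with 9 transcripts and 9 start sites. Its H3K4me3 peak, chr7:116163730-116168669, was 4940 bp wide with a score of 3100 and held all 9 start sites. Its H3K27Ac peak, chr7:116160509-116170413, had a score of 3100 and was the widest of the 54 H3K27Ac peaks near members, at 9905 bp. The promoter was open over the upstream start sites: the FAIRE peak chr7:116164593-116165409, with a height of 81.4, held 5 of the 9.

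H3K4me1 at CAV1 lay beside 7 of the 9 start sites and over the 2 farthest downstream. A peak of score 163, chr7:116160628-116164692, ended upstream of the first start site, and a peak of score 97.4, chr7:116166296-116171499, began downstream of the canonical one. The gap of 1603 bp between them held 7 of the 9 start sites. More FAIRE peaks stood within the same acetylated stretch, with heights of 90.3 and 87.5, centred at -2.64 kb and 3.17 kb from the canonical start site.

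The position of the canonical start site was compared in the same way over the 5 members with a promoter H3K4me3 peak. The site itself lay inside an H3K27Ac peak in 5 of 5, against 85.7% of the coding genes with a promoter H3K4me3 peak. It lay inside a FAIRE peak in 3 of 5, CAV1, CAVIN1 and CAVIN2, against 38.0%. It lay inside an H3K4me1 peak in 1 of 5, CAVIN3, against 6.09%, so the H3K4me1 peaks within 1 kb of CAV1, CAVIN1 and CAVIN2 were at their flanks.

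CAV2 encodes caveolin-2, which forms hetero-oligomers with caveolin-1. The gene (ENSG00000105971) spans chr7:115927434-116148595 on the + strand, but its protein-coding transcripts begin at chr7:116139792, and the 212 kb before that come from transcripts with no defined coding sequence. The coding start had an H3K4me3 peak, chr7:116138660-116142263, and an H3K27Ac peak, chr7:116138569-116143142, both with a score of 3100. It had no FAIRE or H3K4me1 peak within 1 kb: the nearest FAIRE peak, with a height of 45.1, began 1330 bp downstream of the canonical start site, and the nearest H3K4me1 peak, with a score of 67.0, began 1534 bp downstream. CAV2 was the 1 member of the 5 acetylated ones with this combination, and 32.9% of coding genes with promoter H3K4me3 and H3K27Ac peaks had neither a FAIRE nor an H3K4me1 peak there. The CAV2 H3K4me3 peak also held a start site of an lncRNA gene, so the mark cannot be assigned to CAV2 alone.

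The upstream start sites of CAV2 looked different from the coding one. All 6 of them were within 1 kb of a single H3K27Ac peak, chr7:115926991-115929593, with a score of 57.3, which 97.5% of the list reached. No H3K4me3, H3K4me1 or FAIRE peak lay within 1 kb of these 6 sites.

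The CAV1-CAV2 unit, with the canonical start sites 25.3 kb apart, was the part of the family where H3K27Ac, H3K4me1 and FAIRE peaks were most crowded. H3K4me3 peaks were not, at 1.34 per 100 kb against 3.31 for CAVIN1. The joined bounds widened by 50 kb, 374 kb in all, held 30 H3K27Ac, 32 H3K4me1, 28 FAIRE and 5 H3K4me3 peaks. H3K27Ac covered 28.8% of the window, H3K4me1 30.6% and FAIRE 7.53%, where the medians over all coding genes were 6.17%, 2.44% and 1.84%. Of 20098 coding genes, 1.76% had a window covered as much by H3K27Ac, 0.274% by H3K4me1 and 2.17% by FAIRE. H3K4me3 covered 3.71%, near the median of 3.62%. With only the coding transcripts of both genes the window shrank to 161 kb and held 14 H3K27Ac, 15 H3K4me1 and 12 FAIRE peaks, while the covered shares were 27.2%, 30.6% and 6.72%. H3K4me3 cover rose to 7.67% in this shorter window, which 4544 of 19756 coding genes reached with windows made in the same way.

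Some overlaps between lists were more frequent in the unit than in the whole lists, and others were not. Of the 28 FAIRE peaks, 27 shared a base with both an H3K4me1 and an H3K27Ac peak, against 47.1% of all FAIRE peaks. Of the 32 H3K4me1 peaks, 28 met an H3K27Ac peak, against 74.7% of the list. All 5 H3K4me3 peaks met peaks of the other 3 lists, as did 14.9% of all H3K4me3 peaks. Of the 30 H3K27Ac peaks, 11 had a score of 3100, against 10.5% of that list at or above it. In contrast, 22 of the 32 H3K4me1 peaks and 20 of the 30 H3K27Ac peaks met a FAIRE peak, 68.8% and 66.7%, against 71.4% and 68.2% of the lists, and 5 of the 30 H3K27Ac peaks met an H3K4me3 peak, 16.7% against 38.5%. Peaks that met no other list made up 4 of the 30 for H3K27Ac, 13.3%, against 7.30%. The median gap between neighbouring H3K27Ac peaks was 5237 bp and the longest was 28565 bp. Peaks of 1 locus are neighbours and are not independent of each other, and the copy number of the locus was not analysed here.

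**Figure D2:**
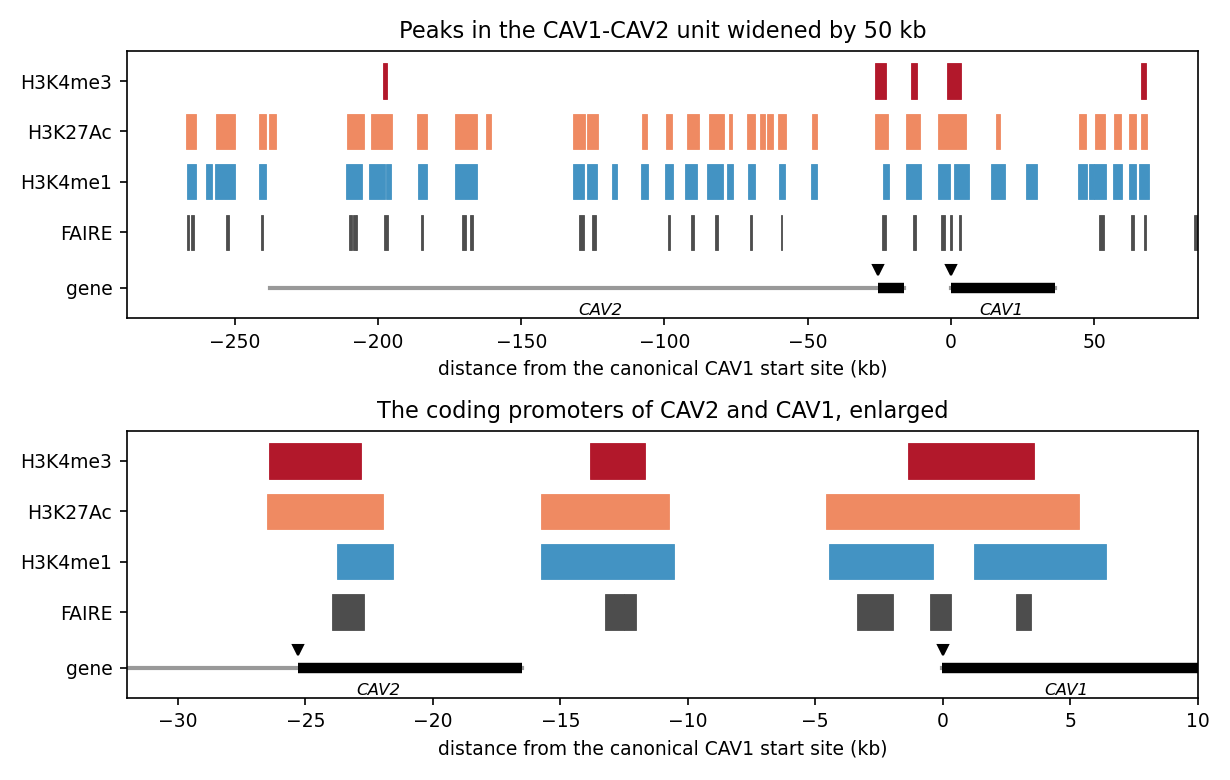
Map of the CAV1-CAV2 unit in MDAMB231 cells. Boxes are peaks drawn to scale, with 1 row for each list, against distance in kb from the canonical CAV1 start site; grey lines are gene bounds, black bars are the span of protein-coding transcripts and triangles are canonical start sites. H3K27Ac and H3K4me1 peaks fill 28.8% and 30.6% of the upper window, and the lower panel shows the H3K4me3 peak between the genes and the 1.60 kb gap in H3K4me1 over 7 of the 9 CAV1 start sites.

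By place, most peaks of the unit were away from coding promoters, as in the lists of H3K27Ac, H3K4me1 and FAIRE, where 35.8%, 17.7% and 19.4% of peaks were at a promoter of any coding gene. For H3K27Ac, 3 of 30 were at a promoter of CAV1 or CAV2, 18 were inside a member away from promoters, 8 were between coding genes and 1 was in TES. For H3K4me1 the counts were 2, 19, 10 and 1 of 32. For FAIRE they were 1, 16, 10 and 1 of 28. For H3K4me3, 2 of 5 were at a promoter of CAV1 or CAV2, 1 was inside a member and 2 were between coding genes. In the whole H3K4me3 list, 71.1% of peaks were at a promoter of any coding gene. The peaks inside a member were largely in the CAV2 bounds upstream of its coding start, so "inside" rests on the transcripts with no defined coding sequence. TES, which encodes the focal adhesion protein testin, was the 1 other coding gene with start sites in the window. Its 4 start sites there had no promoter peak in any list. The 5-prime end of TES, at chr7:115850560 on the + strand, lay outside the window and was not examined.

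The strongest H3K4me1 peak near any member was in this upstream stretch, at chr7:115992095-115999735, with a score of 802 that 1.31% of the list reached. It was 7641 bp wide, shared bases with an H3K27Ac peak of score 3100 and FAIRE peaks of 97.1 and 64.3, and was centred at -169 kb from the CAV1 start site. The H3K4me1 peak chr7:115908132-115915139, with a score of 726, was farther upstream, and that at chr7:115953883-115959503 had a score of 603. The last held the tallest FAIRE peak of the unit, chr7:115957238-115957908, with a height of 169 that 0.722% of all FAIRE peaks reached.

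Between CAV2 and CAV1 stood a region with peaks of all 4 lists and no annotated start. Its H3K4me3 peak, chr7:116151242-116153391, was 2150 bp wide with a score of 2062, and the nearest start site of any annotated gene, coding or not, was 11144 bp away. The H3K27Ac peak over it had a score of 3100, the H3K4me1 peak a score of 269, and adjoining FAIRE peaks had heights of 81.5 and 54.4. At 4 of the 13 H3K4me3 peaks near members there was no start site within 1 kb, against 20.6% of all H3K4me3 peaks. Downstream of CAV1 another of the 4, chr7:116231563-116233249, had a score of 258 and also met peaks of the other lists.

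CAV3 encodes caveolin-3, the caveolin of striated muscle. The gene (ENSG00000182533) spans chr3:8775488-8883492 on the + strand because of 1 long transcript with no defined coding sequence, and the coding transcripts end at chr3:8788444. None of its 3 start sites had a peak of any list within 1 kb. The nearest peak was H3K4me1, whose edge was 4504 bp downstream of the canonical start site.

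That H3K4me1 peak belonged to an acetylated region inside the gene. The H3K27Ac peak chr3:8780466-8785862, 5397 bp wide, lay in an intron of the coding transcripts with a score of 3233. At or above 3100 stood 10.5% of the H3K27Ac list, and scores from 3100 to 3233 were not read as a ranking. H3K4me1 had a score of 408 over chr3:8779992-8786458, and adjoining FAIRE peaks had heights of 147 and 89.7. There was no H3K4me3 peak over it. The region also lies in SSUH2, a gene on the opposite strand, and both histone peaks reached within 1 kb of its start sites, so by the rule of place they were put at the SSUH2 promoter and not inside CAV3. Which gene the region acts on was not tested.

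The other peaks of the CAV3 window were mostly in neighbouring genes. Of 9 H3K27Ac peaks, 6 were in SSUH2 or RAD18 away from promoters, and 1 of these, chr3:8908927-8914166 in RAD18, had a score of 3100 with a FAIRE peak of height 181, the tallest near any member. The 1 H3K4me3 peak, chr3:8810271-8811801 with a score of 182, was at the start of OXTR, the oxytocin receptor gene, and met no peak of another list. The window was covered 14.6% by H3K27Ac and 15.9% by H3K4me1, and 16.8% and 4.63% of coding genes had as much. With the coding transcripts alone these fell to 7.03% and 5.73%, which 45.1% and 28.6% of 19756 coding genes reached with windows made in the same way, so the rank of CAV3 rested on its long transcript.

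CAVIN1 encodes cavin-1, also named PTRF, which is required for caveolae in all tissues. The gene (ENSG00000177469) lies at chr17:40554467-40575274 on the - strand with 1 start site. Its H3K4me3 peak, chr17:40571276-40576477, was 5202 bp wide and the widest near any member, and it and the H3K27Ac peak, chr17:40570485-40576481, had a score of 3100. A FAIRE peak of height 64.7 lay over the start site, and an H3K4me1 peak of score 111 ended 738 bp inside the gene. Upstream, an acetylated region with a FAIRE peak of height 127, chr17:40580156-40581287, was centred 5.45 kb from the start site and met no H3K4me1 peak.

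The CAVIN1 window held 2 H3K4me1 peaks, which covered 10.4% of it, and 12.8% of coding genes had as much. The wider of them, at 8352 bp, was at the promoter of a neighbour, ATP6V0A1, and the one at CAVIN1 was 4188 bp wide. Of its 7 H3K27Ac peaks, 2 met an H3K4me1 peak, against 54.6% of the list. Of its 7 FAIRE peaks all 7 met H3K27Ac and 2 met H3K4me1, against 71.8% and 54.9%. The window also holds the promoters of STAT3, a transcription factor gene, and ATP6V0A1, a subunit gene of the vacuolar proton pump. STAT3 had promoter peaks of H3K4me3, H3K27Ac and FAIRE, and ATP6V0A1 of H3K4me3, H3K27Ac and H3K4me1. Peaks at these promoters or inside STAT3 made up 3 of the 4 H3K4me3 peaks and 3 of the 7 H3K27Ac peaks, so the window's H3K4me3 cover of 10.4%, the highest of the 7 members, was not that of CAVIN1 alone.

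CAVIN2 encodes cavin-2, also named SDPR, which helps to bend the caveolar membrane. The gene (ENSG00000168497) lies at chr2:192699036-192711814 on the - strand with 1 start site. Its promoter peaks were the weakest of the 5 marked members in both promoter marks: H3K4me3, chr2:192709266-192712608, had a score of 1334 and H3K27Ac, chr2:192709348-192713333, a score of 799. The FAIRE peak over the start site had a height of 75.2, which was higher than that of CAVIN1.

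A run of acetylated regions stood upstream of CAVIN2, where no other coding gene lies. All of the 6 other H3K27Ac peaks of the window were upstream and between genes. The strongest, chr2:192728883-192733679, had a score of 3100, above the 799 of the promoter itself. It shared bases with an H3K4me1 peak of score 531, which 4.32% of that list reached, and a FAIRE peak of height 112 and width 2015 bp, the widest FAIRE peak near any member. Its centre was 19.5 kb from the start site. H3K4me1 covered 15.6% of the window, as much as in 4.87% of coding genes, and 602 of the 20098 had as much FAIRE cover.

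CAVIN3 encodes cavin-3, also named PRKCDBP, which binds protein kinase C delta. It is the shortest of the 7 genes (ENSG00000170955), 1587 bp at chr11:6340176-6341762 on the - strand, with 4 start sites. Its marks were confined to the gene and its edges within the window examined: 1 H3K4me3 peak and 1 H3K27Ac peak, both with a score of 3100, 1 H3K4me1 peak with a score of 151, and 3 FAIRE peaks with heights of 85.2, 61.0 and 77.1. The H3K4me1 peak, chr11:6336531-6345088, was the widest H3K4me1 peak near any member at 8558 bp, and it ran across all 4 start sites without a gap. The gene itself lay wholly inside the H3K4me3, H3K27Ac and H3K4me1 peaks. CCKBR, a gastrin and cholecystokinin receptor gene whose start site lies in the window, had no promoter peak.

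CAVIN4 encodes cavin-4, also named MURC, the cavin of heart and skeletal muscle. The gene (ENSG00000170681) lies at chr9:103340361-103350671 on the + strand with 1 start site. Its window held 2 peaks in all, an H3K4me3 peak and a FAIRE peak, both downstream of the gene. It held no H3K27Ac peak, as did 13.3% of coding genes, and no H3K4me1 peak, as did 37.3%, and 12.0% had neither. The nearest H3K27Ac peak was 103614 bp from the start site and the nearest H3K4me1 peak 145179 bp. The H3K4me3 peak, chr9:103360355-103362028, had a score of 686, met no peak of another list and was 16694 bp from the nearest annotated start site. Near members, 2 of 13 H3K4me3 peaks shared no base with an H3K27Ac peak, this one and that of OXTR, against 18.8% of the list.

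**Figure D3:**
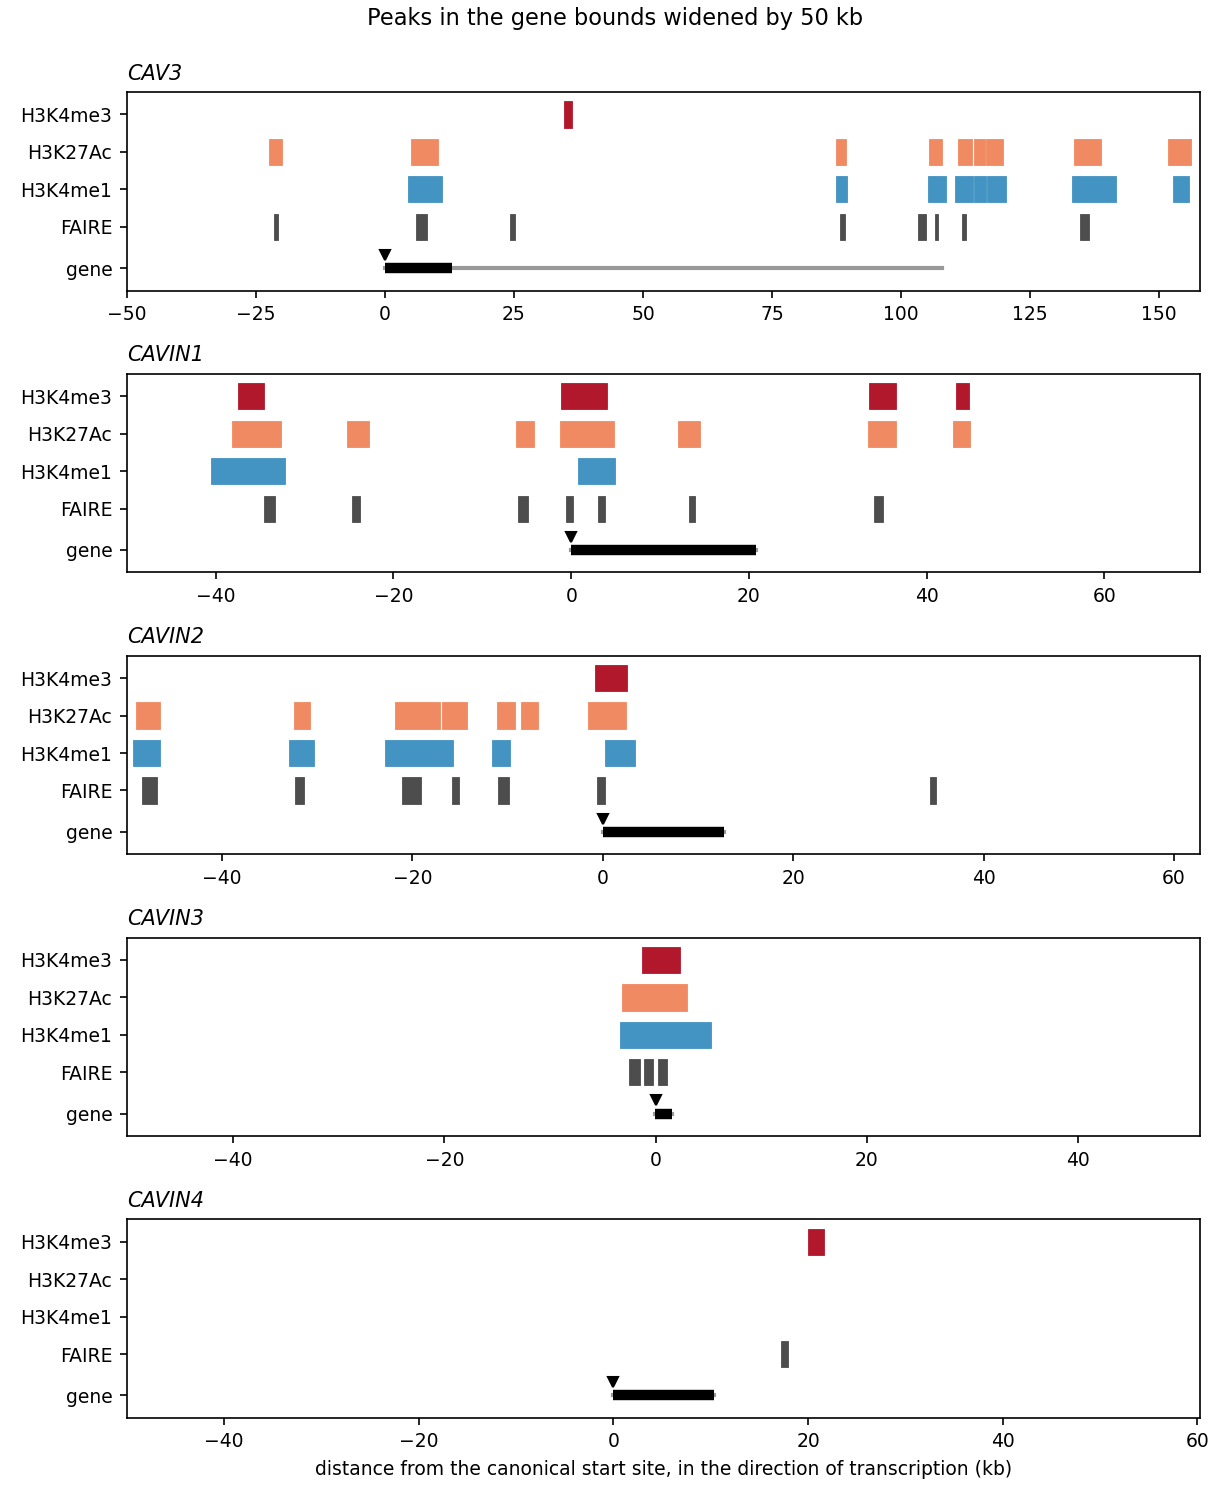
Maps of CAV3 and the 4 cavin genes in MDAMB231 cells. Boxes are peaks drawn to scale in the gene bounds widened by 50 kb, against distance in kb from the canonical start site in the direction of transcription, with gene bounds in grey, the span of coding transcripts in black and start sites as triangles. CAVIN1, CAVIN2 and CAVIN3 have peaks of all 4 lists at or beside the start site, CAV3 has an acetylated region inside the gene, and CAVIN4 has 2 peaks, both past its end.

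Set side by side, the windows of the members differed widely in H3K27Ac and H3K4me1 cover. H3K27Ac cover was 29.6% for CAV2, 25.8% for CAV1, 19.6% for CAVIN1, 17.2% for CAVIN2, 14.6% for CAV3, 6.06% for CAVIN3 and 0 for CAVIN4. The median of the 7 was 17.2%, against 6.17% over all coding genes. For H3K4me1 the median of the 7 was 15.6% against 2.44%, and for FAIRE 5.45% against 1.84%. For H3K4me3 it was 3.55%, close to 3.62% for all. With coding transcripts alone the H3K4me1 cover of CAV3 was 5.73%, and the middle value of the 7 was then the 10.4% of CAVIN1. CAV1 ranked highest by H3K4me1, with 32.9% of its window covered, which 36 of 20098 coding genes reached, and 2.92% of them reached its H3K27Ac cover. The windows of CAV1 and CAV2 overlap, so the values of these genes are not separate.

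**Figure D4:**
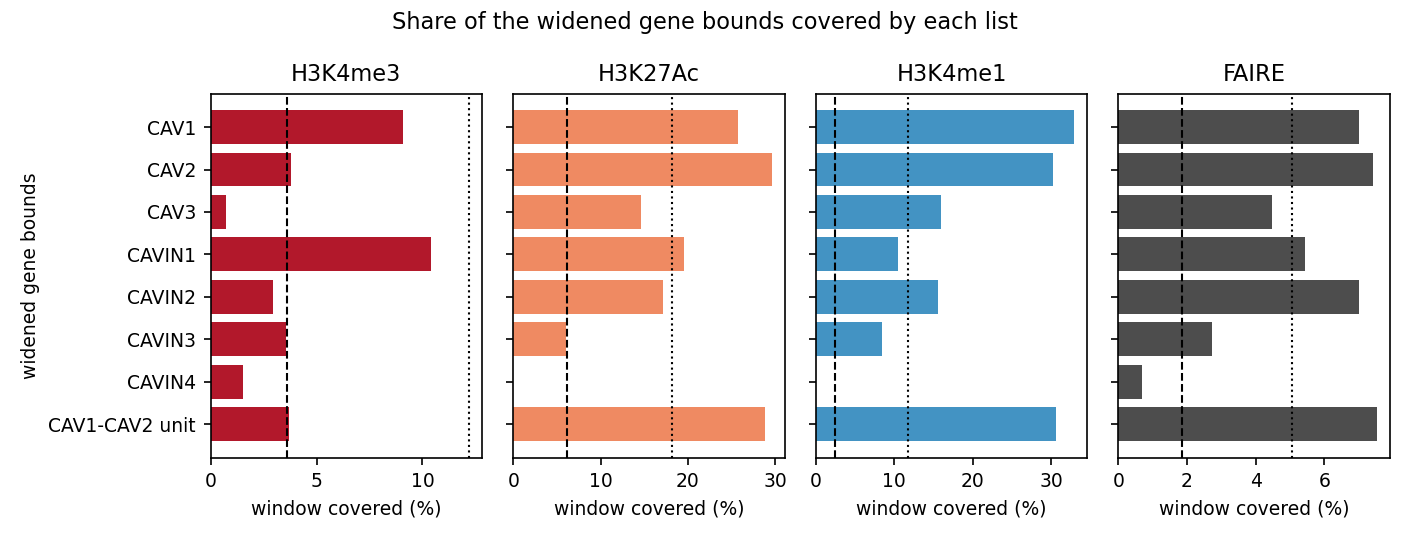
Percent of the widened gene bounds covered by the peaks of each list, for the 7 members and the CAV1-CAV2 unit. The dashed line is the median over 20098 protein-coding genes and the dotted line their 90th percentile; CAV1, CAV2 and the unit lie past the dotted line for H3K27Ac, H3K4me1 and FAIRE, and CAVIN4 is below the dashed line in all 4 lists.

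The coding genes most like CAV1 in the 4 covered shares, by Euclidean distance in percentage points, were G0S2 (3.16), IFIT3 (3.19), GLRX (3.29), CPOX (3.93) and RAC2 (4.32). IFIT3, GLRX and CPOX had promoter peaks of all 4 lists, as CAV1 did. G0S2 and RAC2 had no promoter FAIRE peak. The H3K4me1 cover of these 5 genes ran from 30.4% in CPOX to 36.0% in IFIT3, around the 32.9% of CAV1.

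Genes whose products work with or beside caveolae were counted in the same way. Of the 13 in the list, 12 had a promoter H3K4me3 peak, 10 an H3K27Ac peak, 4 an H3K4me1 peak and 8 a FAIRE peak, against 67.3%, 63.5%, 20.0% and 39.3% of all coding genes, and the differences were not tested. PACSIN2, a membrane-bending F-BAR protein, DNM2, the ubiquitous dynamin, SRC, the kinase that phosphorylates caveolin-1, and FLOT1, a flotillin, had peaks of all 4 lists. EHD2, the ATPase at the caveolar neck, had H3K4me3 and H3K27Ac scores of 3100 and 2217 and a FAIRE height of 61.7. Its relatives EHD1 and EHD4 had peaks of the same 3 lists, whereas EHD3 had an H3K4me3 peak alone, with a score of 271, as did PACSIN1 with 312. PACSIN3 and FLOT2 had both H3K4me3 and H3K27Ac without FAIRE, and FLNA, filamin A, had these and a FAIRE peak. NOS3, the endothelial nitric oxide synthase that caveolin-1 binds, had no promoter peak.

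CAV3 and CAVIN4 shared the lack of promoter peaks with genes of striated muscle. Of MYOD1, MYOG, ACTA1, CKM, TTN, MYH7, DES and PYGM, 0 of 8 had a promoter peak in any list, a lack found at 29.3% of all coding genes. The median H3K27Ac cover of these 8 windows was 2.52%. CAV3, at 14.6%, was above all 8, the highest of which was DES at 7.58%, but with coding transcripts alone the CAV3 window was covered by 7.03%. CAVIN4, at 0, was level with MYOG and ACTA1.

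Sequence at the centres of FAIRE peaks was compared next, in 200 bases around each centre and on both strands. The AP-1 motif TGANTCA was present at 16 of the 55 FAIRE peaks near members, 29.1%, and at 29.4% of all 46552 FAIRE peak centres. At the CAV1-CAV2 unit it was 8 of 28, and at CAV3 4 of 9. The TEAD motif GGAATG was at 12 of 55, 21.8%, against 6987 of all 46552 centres, the TATA box TATAAA at 9, against 13.1%, the GC box GGGCGG at 5, against 8.94%, CCAAT at 18, against 27.6%, and the CArG box at 1, against 1.27%. The AP-1 share was that of the list, and none of the differences was tested. A match is a description of the letters and not a bound site.

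The tallest FAIRE peaks away from promoters in the CAV1-CAV2 unit, inside CAV3, near CAVIN1 and near CAVIN2, and the taller FAIRE peak in the H3K4me3 region between CAV2 and CAV1, are shown by their central 200 bases on the + strand of GRCh37, with the AP-1 motif in capitals. They were chosen after their heights were seen, to show the open regions that the text describes outside promoters. None overlapped an annotated untranslated region.
CAV1-CAV2 unit, tallest, chr7:115957474-115957673: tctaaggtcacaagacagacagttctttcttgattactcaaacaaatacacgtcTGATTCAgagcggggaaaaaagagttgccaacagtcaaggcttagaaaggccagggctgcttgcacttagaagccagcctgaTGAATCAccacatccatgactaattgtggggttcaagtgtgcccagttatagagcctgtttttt
CAV1-CAV2 unit, between the genes, chr7:116152117-116152316: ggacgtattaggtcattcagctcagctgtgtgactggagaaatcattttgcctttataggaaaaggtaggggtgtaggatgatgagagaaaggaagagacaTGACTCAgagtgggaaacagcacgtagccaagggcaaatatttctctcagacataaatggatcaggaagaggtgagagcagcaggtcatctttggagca
CAV3 intron, chr3:8781918-8782117: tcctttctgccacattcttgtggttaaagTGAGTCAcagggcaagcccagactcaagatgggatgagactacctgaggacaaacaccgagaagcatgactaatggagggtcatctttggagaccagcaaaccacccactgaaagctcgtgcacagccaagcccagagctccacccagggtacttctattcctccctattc
CAVIN1 upstream, chr17:40580622-40580821: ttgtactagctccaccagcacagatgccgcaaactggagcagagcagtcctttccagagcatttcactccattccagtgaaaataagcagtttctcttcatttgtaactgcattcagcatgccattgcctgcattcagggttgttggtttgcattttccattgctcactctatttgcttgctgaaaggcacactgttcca
CAVIN2 upstream, chr2:192731816-192732015: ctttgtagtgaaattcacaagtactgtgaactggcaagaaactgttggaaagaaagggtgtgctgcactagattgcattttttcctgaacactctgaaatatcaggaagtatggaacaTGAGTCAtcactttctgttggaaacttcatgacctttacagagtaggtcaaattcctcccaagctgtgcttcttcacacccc

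The tallest peak of the unit held the AP-1 motif at 2 places. The region between CAV2 and CAV1, the CAV3 intron and the CAVIN2 upstream region held it once each. The CAVIN1 upstream window held none and had 1 TEAD motif. The region between CAV2 and CAV1 also held 1 TATA box and 1 CArG box, the only CArG box at the 55 centres, and these overlapped each other.

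In the 250 bases of the promoters, the GC box was present 6 times in CAV2 and 3 times in CAV1, where 42.6% of RefSeq promoters held at least 1. CAV3 held 1 CCAAT motif, which 32.0% of promoters held, CAVIN2 held 1 TEAD motif, which 11.9% held, and CAVIN4 held 1 TATA box, which 10.7% held. None of the 5 held the AP-1 motif or the CArG box, present in 6.57% and 1.16% of promoters. As each promoter held motifs of 1 kind, no motif overlapped one of another kind.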

How the data were processed

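Peaks of FAIRE-seq and of H3K4me3, H3K27Ac and H3K4me1 ChIP-seq in MDAMB231 cells were analysed as deposited, 1 list per assay from 2 combined samples. Alignment by the authors was to GRCh37 (hg19), with BWA, and Samtools served to filter out duplicate and poorly mapped reads. MACS, run with the input as control, gave the histone peaks, and FindPeaks gave those of FAIRE. As deposited, each histone peak has a score, 10 times the negative log10 of the probability that MACS assigned, and the authors kept peaks down to 1e-05. The deposited height of a FAIRE peak is its signal in FindPeaks. The submitters' processing notes also name TopHat and HOMER, without giving a role. In the authors' methods HOMER served to merge and annotate peaks and to find H3K4me1 sites that differed between cell types. The depth per sample is not given in the files.

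Overlaps of at least 1 base, window cover and motifs were computed with Python 3.11.15, numpy 2.4.6 and pandas 2.3.3 on GENCODE v44lift37, and figures with matplotlib 3.10.9. A self-test on 1500 simulated intervals gave the same overlaps as bedtools 2.31.1, with 0 differences. Peaks were placed, in order, at a promoter of a member, at another coding promoter, inside a member, inside another coding gene, or between coding genes. Overlap of peaks with each other used chromosomes 1 to 22 and X. No test was run, since the lists have no replicates and genes are not replicates; counts stand beside those of all coding genes or all peaks.

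The genes named were the 7 members, the listed caveola, striated muscle and cell state genes, other coding genes with promoters in the windows, and the 5 genes most like CAV1 by Euclidean distance over the 4 covered shares, leaving out windows that overlap that of CAV1. RAD18 was named after its peaks were seen. Members and lists were chosen with earlier results of these data known. Alternatives were promoters of 500 bp or 2 kb, the 5-prime end of the gene alone, coding transcripts alone, peak centres, windows of 0, 25 or 100 kb, a MACS limit of 1e-10, and only those FAIRE peaks whose height reached the median.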

Additional observations from a re-analysis of the deposited data

How the results depend on the processing

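Of 72 recomputed counts, 57 stayed within 1.5 times the reported one. The promoter counts did so under each alternative except 1: with the centre of the peak required inside the promoter, 1 member in place of 4 had an H3K4me1 peak, CAVIN3, while the share of all coding genes fell from 20.0% to 8.64%. With start sites widened by 2 kb, CAV2 gained its FAIRE and H3K4me1 peaks. With 500 bp CAVIN1 lost its H3K4me1 peak, and at a MACS limit of 1e-10 CAVIN2 lost its own, so these genes no longer had peaks of all 4 lists. The centre rule also dropped the H3K4me3 and H3K27Ac peaks of CAVIN1. With the 5-prime end of the gene bounds alone CAV2 lost its H3K4me3 peak.

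With gene bounds alone, the peaks of the members fell from 13 to 7 for H3K4me3, 54 to 28 for H3K27Ac, 48 to 26 for H3K4me1 and 55 to 28 for FAIRE, as a smaller window gives. With windows of 100 kb, FAIRE peaks rose to 84. At MACS p at or under 1e-10, the unit of CAV1 and CAV2 kept 20 of its 32 H3K4me1 peaks, and the whole list kept 57.1%. At or above the median FAIRE height, 34 of the 55 peaks and 17 of the 28 of the unit were left, where the list by definition keeps 23276 of 46552. Bounds of protein-coding transcripts alone were tried after seeing the data, and these left 31 H3K27Ac, 24 H3K4me1 and 34 FAIRE peaks near the members and 14, 15 and 12 at the unit, since CAV2 and CAV3 become shorter.

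No paired analysis was possible because the samples of an assay were merged into a single list, so none was left out in turn. Peak scores and heights depend on a depth that the files do not give, and a missing peak is not evidence that a mark is absent.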
